A study of Homo sapiens with 9 samples.

Results

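The genes described here are the splicing factors of the SRSF, HNRNP, SNRP, SF3 and PRPF families in HEK293, a human embryonic kidney cell line in common use. A gene was included when its single annotated symbol began with SRSF, SF3A, SF3B or PRPF and a digit, or with HNRNP or SNRP, and each was read by the 1 probe set of highest mean signal over the 9 arrays. This gave 64 genes of 19775 with such a probe set, namely 10 SRSF, 21 HNRNP, 13 SNRP, 9 SF3 and 11 PRPF genes. Of these, 61 passed the filter on dim probe sets and were tested, among 12036 genes tested in all; PRPF40B, SNRPF-DT and SNRPN did not pass. The 64 included 3 that do not encode proteins, the pseudogene HNRNPA3P1 and the long noncoding RNAs HNRNPD-DT and SNRPF-DT, while 11 symbols of these families, SRSF2 and SRSF9 among them, were read only by probe sets with several symbols and were not analysed here.

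Expression was profiled on 9 arrays, 3 in each of 3 groups. Knock Down cells were transfected with siRNA against hMOF, the histone H4 lysine 16 acetyltransferase encoded by KAT8. Over Expression cells were transfected with a plasmid encoding hMOF, and Wild type cells received no treatment. The study's design text also names cells given EGFP dsRNA as controls, and no array of such cells is analysed here, so each contrast with Wild type also holds the transfection. Nothing in the labels states whether a group's arrays stem from separate cultures, and the p-values therefore reflect only how far these arrays scatter within a group, which could be technical.

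Pre-mRNA splicing is carried out by the spliceosome, which assembles on each intron from small nuclear ribonucleoprotein particles (snRNPs) and many further proteins. SNRP genes encode the Sm ring and the particle-specific proteins of the U1 and U2 snRNPs, the SF3A and SF3B complexes are parts of the U2 snRNP that clamp the branch site, and most PRPF proteins belong to the tri-snRNP of U4, U6 and U5 or act in the catalytic steps. SRSF genes encode SR proteins, which bind exons and generally favour their inclusion. HNRNP genes encode RNA-binding proteins that coat nascent transcripts and often act against SR proteins.

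The promoters of 5 genes whose signals changed are shown, 3 that fell after knockdown (SF3B5, SF3A3, PRPF31) and 2 that rose (HNRNPF, SRSF6). Their part in these changes was not tested. Each is the 250 bases before the annotated start in RefSeq, build GRCh38.p14, printed 5′ to 3′ on the gene's own strand, with capitals for every match to CGGAAG or its reverse complement CTTCCG, the core bound by ETS factors.
SF3B5 (chr6:144095574-144095823, minus strand): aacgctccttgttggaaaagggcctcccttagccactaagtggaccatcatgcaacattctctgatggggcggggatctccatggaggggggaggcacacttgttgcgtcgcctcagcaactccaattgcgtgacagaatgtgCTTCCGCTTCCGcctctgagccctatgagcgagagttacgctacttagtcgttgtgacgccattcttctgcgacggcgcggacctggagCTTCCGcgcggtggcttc
SF3A3 (chr1:37990023-37990272, minus strand): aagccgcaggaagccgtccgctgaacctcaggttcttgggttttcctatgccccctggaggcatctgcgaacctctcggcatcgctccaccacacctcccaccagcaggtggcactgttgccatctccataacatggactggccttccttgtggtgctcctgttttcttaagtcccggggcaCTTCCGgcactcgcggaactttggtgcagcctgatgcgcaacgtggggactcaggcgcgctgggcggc
PRPF31 (chr19:54115504-54115753, plus strand): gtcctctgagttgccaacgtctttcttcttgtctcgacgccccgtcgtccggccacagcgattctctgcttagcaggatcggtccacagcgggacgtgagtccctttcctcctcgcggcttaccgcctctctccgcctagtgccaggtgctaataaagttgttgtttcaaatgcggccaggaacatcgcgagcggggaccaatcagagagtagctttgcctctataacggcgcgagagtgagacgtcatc
HNRNPF (chr10:43408858-43409107, minus strand): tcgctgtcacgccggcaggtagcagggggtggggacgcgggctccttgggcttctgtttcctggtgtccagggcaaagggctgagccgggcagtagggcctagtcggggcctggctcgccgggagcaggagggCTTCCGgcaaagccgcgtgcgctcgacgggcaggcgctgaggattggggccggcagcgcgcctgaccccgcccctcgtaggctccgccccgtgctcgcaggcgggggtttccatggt
SRSF6 (chr20:43457646-43457895, plus strand): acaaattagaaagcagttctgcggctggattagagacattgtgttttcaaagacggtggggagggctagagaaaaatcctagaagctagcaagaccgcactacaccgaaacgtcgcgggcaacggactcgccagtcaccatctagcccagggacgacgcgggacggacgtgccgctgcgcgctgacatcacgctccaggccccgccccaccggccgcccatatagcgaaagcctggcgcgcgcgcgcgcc
SF3B5 held 3 such cores, whose first bases lay 107, 101 and 18 bases before the start, and SF3A3 and HNRNPF held 1 each, 68 and 117 bases before it. The promoters of PRPF31 and SRSF6 had no match in this window. Searched on both strands, the core was present in 29 of the 58 family members with a RefSeq promoter (50%), in 28% of 9889 tested genes and in 16.8% of all 27305 promoters. It was present in 5 of the 6 members lower and in 2 of the 3 members higher after knockdown that had a promoter entry. Other motifs were searched as well, and no difference was tested for any. The GC box (GGGCGG) was present in 58.6% of members and 68.6% of tested genes. It was in 4 of the 6 lower and 3 of the 3 higher members. The CCAAT box was present in 44.8% of members and 35.3% of tested genes. It was in 2 of the 6 lower and 1 of the 3 higher members. A match to such letters describes the window and is not evidence of binding.

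The signals of every array had the same 2% trimmed mean, 1500.2, so a change in total RNA that touched all genes alike would not be seen, and fewer cells and less RNA per cell cannot be told apart. The probe sets of the family members were bright: 37 of the 61 lay in the brightest 10% of tested genes, at a signal of 14274 or more, and 10 of 11 SNRP genes did. Signals of different probe sets depend on their probes and give no ranking of RNA levels, but the brightness goes with small errors. The median standard error of a log2 fold change was 0.0885 for the family members and 0.142 for all genes. Probe sets shared between related transcripts were common, since 29 of the 61 carried the array maker's _s_at suffix and 8 its _x_at suffix, which mark probes that may read several transcripts or similar sequences of other genes.

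KAT8 itself had signals of 432.0, 705.8 and 517.1 on the Knock Down arrays, 4594, 4727 and 4763 on the Over Expression arrays and 2910, 3797 and 3249 on the Wild type arrays. The 3 groups did not overlap. It fell after knockdown (log2 fold change -2.61 ± 0.17 SE, limma adjusted p = 4.72e-05, n = 3 arrays per group) and measured 0.51 ± 0.17 after overexpression (limma adjusted p = 0.259). A second, dimmer probe set of KAT8, 214885_at, had 159.5, 119.0 and 165.6 on Knock Down, 656.6, 428.3 and 380.8 on Over Expression and 428.3, 498.9 and 400.7 on Wild type arrays. It also fell after knockdown (-1.58 ± 0.26, limma adjusted p = 0.00296), while the Over Expression and Wild type arrays overlapped (0.11 ± 0.26, limma adjusted p = 0.91). Either probe set reads the gene's transcripts, and neither was matched to the plasmid's insert. Markers of HEK293 were present, with VIM at 79350 ± 5918 on Knock Down, 70091 ± 7945 on Over Expression and 78258 ± 1248 on Wild type arrays (mean ± SD, n = 3), and of 10 markers of blood cells, fibroblasts and endothelium, 6 were below the filter, the leukocyte gene PTPRC and the endothelial genes VWF and CDH5 among them. The other 4 passed it. The collagen gene COL1A1 had 1786 ± 309.2 on Knock Down, 2379 ± 453.0 on Over Expression and 2175 ± 150.6 on Wild type arrays, and the globin gene HBB and the endothelial gene PECAM1 averaged 197.1 and 170.5 on Knock Down, 235.7 and 204.9 on Over Expression and 270.9 and 252.8 on Wild type arrays, near the filter. None of these 3 was called in Knock Down against Wild type. Summed over the 10 markers, the signal ran from 2422 to 2908 on Knock Down, 3367 to 4284 on Over Expression and 3376 to 4098 on Wild type arrays, lower on every Knock Down array. Among 7 HEK293 markers, PAX2 and KRT8 were lower in Knock Down than in Wild type (PAX2 195.2 ± 13.8 in Knock Down and 414.6 ± 62.5 in Wild type, limma adjusted p = 0.00513), as was the fibroblast gene COL3A1 near the filter (limma adjusted p = 0.046), and their part in the following results was not tested. On the 3 replicate 1 arrays, 1 in each group, poly-A control transcripts added to the RNA were dimmer, by 2.22-fold, than on the 6 arrays of replicates 2 and 3. Of the 61 family members, 10 were lower on every replicate 1 array than on any other array and 3 were higher. Of all 27307 tested probe sets, 1726 were lower and 1319 higher in this way. Among the members SRSF11 had the largest such difference, -1.09 on the log2 scale.

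After hMOF knockdown, the families as a whole did not shift, and a minority of single genes did. In Knock Down against Wild type, 10 of the 61 members passed the threshold, an adjusted p under 0.05 in limma's moderated test over all 27307 tested probe sets. That is 16.4%, against 15.7% of all tested probe sets and 19.4% of genes read the same way. Of the 10, 4 were higher (SRSF6, HNRNPA1, HNRNPF and SF3A2), where 6.70% of genes were, and 6 were lower (SNRPC, SF3A3, SF3B5, SF3B6, PRPF18 and PRPF31), where 12.7% of genes were. These shares lie near the background, so the count sets the families apart from other genes in neither direction. The median log2 fold change was -0.03 for the 61 members and -0.04 for all genes. No member changed by 2-fold or more, which 365 of the 12036 genes did, and the 95% interval lay within 1.5-fold in either direction for 50 of the 61 (82%), against 51.5% of genes.

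**Figure D1:**
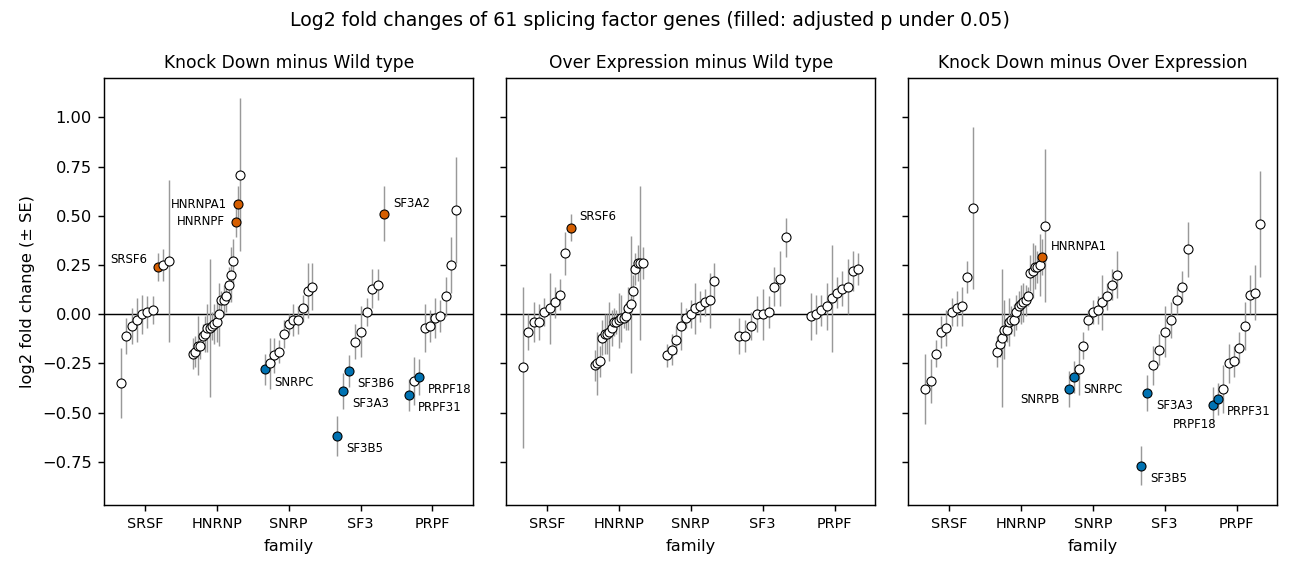
Log2 fold change (points) ± SE (bars, n = 3 arrays per group) of the 61 tested genes, ordered within each family, in the 3 comparisons. Filled points have a limma adjusted p under 0.05, orange where higher and blue where lower; most open points lie near 0, and SF3B5 is the lowest point in both comparisons that hold Knock Down.

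Of the 9 SF3 genes, 1 rose and 3 fell, with a median of -0.09. SF3B5, a small core subunit of SF3B, had signals of 18128, 14980 and 16093 on Knock Down arrays and 27856, 26390 and 21663 on Wild type arrays. All 3 Knock Down arrays were below all 3 Wild type arrays, and SF3B5 fell (log2 fold change -0.62 ± 0.10 SE, limma adjusted p = 0.00286). SF3A3, a subunit of the SF3A complex, had 4933, 5187 and 4725 on Knock Down and 6514, 6523 and 6450 on Wild type arrays, again without overlap (-0.39 ± 0.09, limma adjusted p = 0.0151). SF3B6, the small protein that contacts the branch adenosine, had 32213, 30054 and 27224 on Knock Down and 34232, 38116 and 36600 on Wild type arrays (-0.29 ± 0.08, limma adjusted p = 0.0321). SF3A2, which also belongs to SF3A, went the other way. It had 2845, 2889 and 3758 on Knock Down and 2102, 2402 and 2098 on Wild type arrays (0.51 ± 0.14, limma adjusted p = 0.0277), and Knock Down replicate 3 stood highest. The other 5 SF3 genes did not pass, among them SF3B1, the branch-site clamp that is often mutated in blood cancers, at 0.01 ± 0.07 (limma adjusted p = 0.924), and SF3B3 at 0.15 ± 0.08 (limma adjusted p = 0.21).

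The SF3B5 call held in all 6 fits that left out 1 Knock Down or Wild type array. The SF3A3 call ended without Knock Down replicate 3 (limma adjusted p = 0.0608) or Wild type replicate 2 (0.0559). That of SF3A2 ended without Knock Down replicate 3 (0.105), Wild type replicate 1 (0.0642) or Wild type replicate 3 (0.0822). The SF3B6 call held only without Knock Down replicate 1 or Wild type replicate 1. Averaged over its tested probe sets, SF3B6 measured 0.01 (limma adjusted p = 0.969).

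Of the 10 PRPF genes, 2 fell and none rose, with a median of -0.04. PRPF31, which holds the U4/U6 and U5 snRNPs together and is mutated in retinitis pigmentosa, had 6532, 6383 and 5987 on Knock Down and 8182, 8007 and 8932 on Wild type arrays. The groups were clearly apart (-0.41 ± 0.08, limma adjusted p = 0.00692), and the call held in all 6 fits without 1 array. PRPF18, a factor of the second catalytic step, had 3239, 3320 and 3129 on Knock Down and 3921, 4112 and 4074 on Wild type arrays (-0.32 ± 0.09, limma adjusted p = 0.0299), a call that held only without Wild type replicate 1. PRPF39, a U1-associated factor, had the largest difference that missed the threshold, 0.53 ± 0.27 (limma adjusted p = 0.202). Its signals were 4594, 6254 and 6288 on Knock Down and 2501, 5019 and 4756 on Wild type arrays, lowest on the replicate 1 array of each group. PRPF8, the scaffold of the catalytic core, measured -0.07 ± 0.12 (limma adjusted p = 0.735). The tri-snRNP genes PRPF3, PRPF4 and PRPF6 measured -0.02 ± 0.10, 0.09 ± 0.10 and -0.34 ± 0.12, and none passed. PRPF6, with 3044, 3039 and 3350 on Knock Down and 4463, 3907 and 3612 on Wild type arrays, came nearest (limma adjusted p = 0.0737). PRPF19, the ubiquitin ligase at the core of the PRPF19 complex, measured -0.01 ± 0.08 (limma adjusted p = 0.958).

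Among the 11 SNRP genes only SNRPC passed, and the median was -0.05. SNRPC encodes the U1 protein that steadies pairing with the 5′ splice site. It had 9720, 11134 and 9580 on Knock Down and 12432, 11933 and 12386 on Wild type arrays, without overlap (-0.28 ± 0.08, limma adjusted p = 0.0367), and the call held only without Knock Down replicate 2. The Sm ring genes SNRPD2 and SNRPE, with the brightest probe sets of the family, measured -0.19 ± 0.06 (limma adjusted p = 0.0592) and -0.03 ± 0.07 (limma adjusted p = 0.784). SNRPB2, a U2 protein, had the largest difference that did not pass, -0.25 ± 0.13 (limma adjusted p = 0.227). SNRPB had 55473, 46140 and 44436 on Knock Down and 57028, 56726 and 54478 on Wild type arrays, which overlapped (-0.21 ± 0.09, limma adjusted p = 0.127). The remaining Sm ring genes did not pass either, with SNRPD1 at 0.14 ± 0.12, SNRPD3 at 0.03 ± 0.07, SNRPF at -0.10 ± 0.07 and SNRPG at -0.05 ± 0.05. All 11 intervals lay within 1.5-fold, and the fold changes ran from -0.28 to 0.14.

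Of the 21 HNRNP genes, 2 rose and none fell, with a median of -0.04. HNRNPA1, often a repressor of exon inclusion, had 22925, 25482 and 22525 on Knock Down and 14645, 16536 and 16980 on Wild type arrays. The Knock Down arrays were all higher, and HNRNPA1 rose (0.56 ± 0.09, limma adjusted p = 0.00252). HNRNPF, which binds runs of G, had 12361, 11636 and 12858 on Knock Down and 9120, 8964 and 8435 on Wild type arrays, again without overlap (0.47 ± 0.08, limma adjusted p = 0.00451). Both calls held in all 6 fits without 1 array. HNRNPA2B1 and HNRNPAB, the brightest of the family, measured -0.07 ± 0.12 (limma adjusted p = 0.758) and 0.07 ± 0.05 (limma adjusted p = 0.433). HNRNPC, which binds runs of U and packages long introns, measured -0.04 ± 0.10, HNRNPK, which binds runs of C, -0.11 ± 0.06, and HNRNPU, a nuclear scaffold protein, -0.06 ± 0.07, and none of these 3 passed. The pseudogene HNRNPA3P1 had the largest difference, 0.71 ± 0.39, which did not pass (limma adjusted p = 0.252) and rests on signals between 89 and 333.7, near the filter at 188.

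Of the 10 SRSF genes, SRSF6 rose and none fell, with a median of 0.00. SRSF6 had 11426, 11866 and 11309 on Knock Down and 10111, 9426 and 9853 on Wild type arrays (0.24 ± 0.07, limma adjusted p = 0.0401). The arrays did not overlap, but the call ended whichever of the 6 arrays was left out, and its highest adjusted p was 0.145, with Wild type replicate 2 left out. The brightest genes of the family, SRSF1 and SRSF3, which encode classical SR proteins, measured 0.02 ± 0.07 (limma adjusted p = 0.897) and -0.06 ± 0.09 (limma adjusted p = 0.713). SRSF12, an SR-related protein, had the largest difference that did not pass, -0.35 ± 0.18 (limma adjusted p = 0.221). SRSF11 had 20282, 39178 and 51079 on Knock Down and 18420, 32830 and 38457 on Wild type arrays, so the replicate 1 arrays of both groups were low and its 0.27 ± 0.41 has a wide error.

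**Figure D2:**
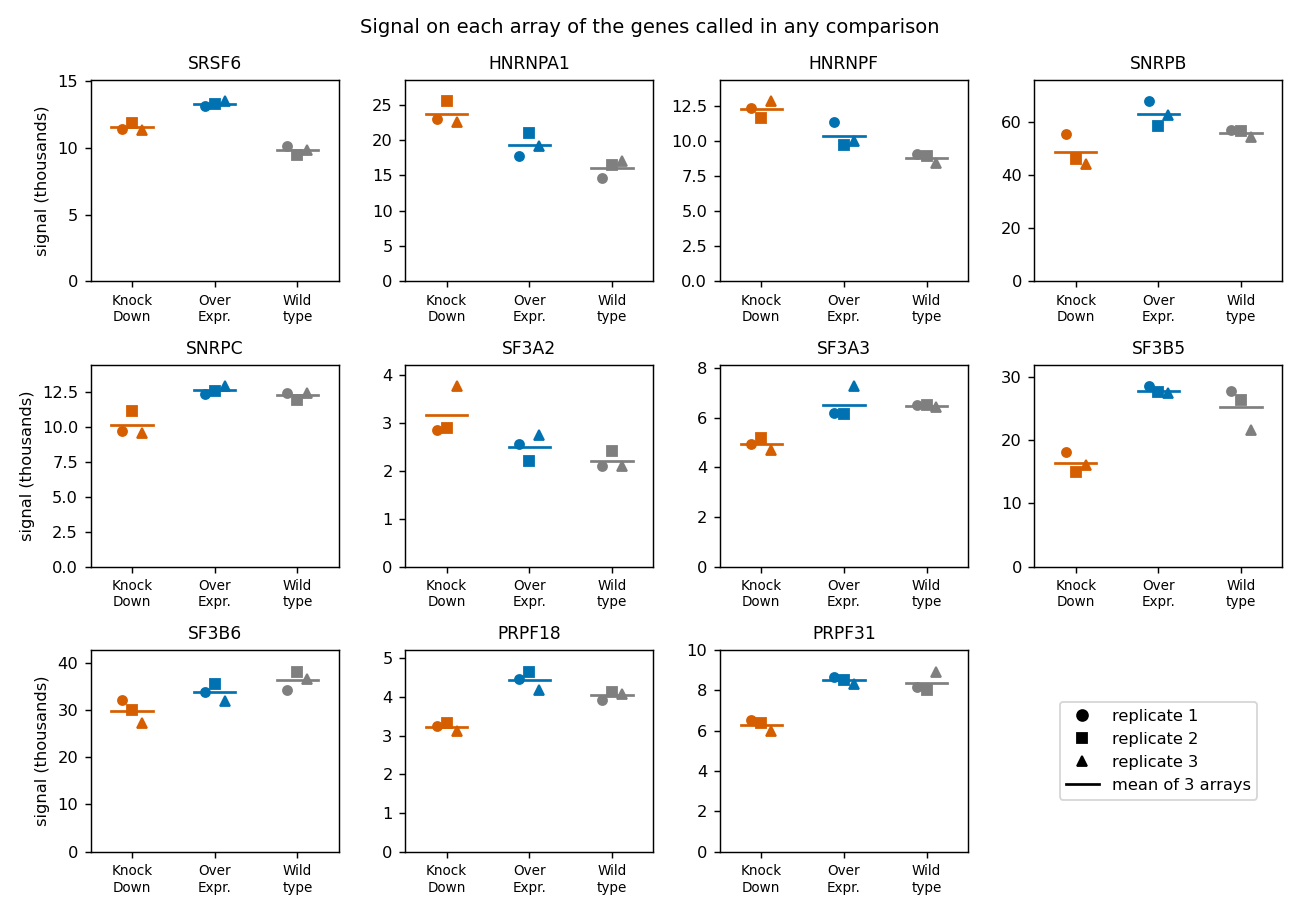
Signal (divided by 1000) on each array of the 11 genes called in any comparison, on axes that start at 0, by group from left to right (Knock Down, Over Expression, Wild type), with a marker for each replicate and a bar at the mean of 3 arrays. SF3B5, PRPF31, PRPF18 and SF3A3 are lower on all 3 Knock Down arrays than on the 6 others, while SRSF6 is highest on the Over Expression arrays.

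Leaving out 1 array at a time also moved the counts in this comparison. The 4 higher members became 2 without Knock Down replicate 3, Wild type replicate 1 or Wild type replicate 3. The 6 lower members became 2 without Knock Down replicate 3 or Wild type replicate 2 and 3 without Wild type replicate 3. Knock Down and Wild type arrays of replicate 1 deviated together (correlation 0.362). Those of replicates 2 and 3 were not clearly paired by number (0.144 and 0.137, against 0.18 and 0.0293 across numbers). With the replicate number as a block, 19 members were called, 8 higher and 11 lower, or 31.1% against 28.0% of all probe sets and 33.4% of genes. All 10 were among them. By family the block called 2 of 10 SRSF, 4 of 21 HNRNP, 4 of 11 SNRP, 4 of 9 SF3 and 5 of 10 PRPF genes. The 9 added were higher for PRPF39 (0.53, limma adjusted p = 0.00247), PRPF38B (0.25, 0.0152), SRSF10 (0.25, 0.0262) and HNRNPUL2 (0.27, 0.034). They were lower for SNRPB2 (-0.25, 0.0158), PRPF6 (-0.34, 0.0203), SNRPD2 (-0.19, 0.0302), SNRPB (-0.21, 0.0306) and HNRNPA0 (-0.20, 0.0357).

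In Knock Down against Wild type, a gene's other probe sets gave a different picture for several SR and hnRNP genes. This comparison was chosen after the values were seen. The 61 tested members had 100 further tested probe sets, of which 13 were higher and 5 lower in Knock Down against Wild type. That is 13% higher, against 6.27% of the further probe sets of all genes, and 5% lower, against 5.86%. The 13 belonged to 10 genes, in 7 of which the brightest probe set was not called. Of the further probe sets, 24 of 31 for SRSF genes and 29 of 45 for HNRNP genes lay above 0, many of them of the same gene. Among the further probe sets of all genes 6155 of 11291 did. The medians were 0.17 and 0.13, against 0.04 for the further probe sets of all genes. With the replicate block 35 of the 100 were called, the 18 among them. Of the 35, 25 were higher, where 12.4% of the further probe sets of all genes were, and 10 were lower, where 10.9% were. Of the 42 members with several tested probe sets, all pointed one way in 19. After overexpression 19 of the 31 SRSF and 26 of the 45 HNRNP probe sets lay above 0, with medians of 0.11 and 0.01. Among the further probe sets of all genes 6018 of 11291 did, with a median of 0.02. In Knock Down against Over Expression 3 of the 100 were higher and 5 lower, where 605 and 676 of 11291 were. With the replicate block 24 of the 100 were called there (24%, against 22.5%).

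HNRNPA2B1, an hnRNP that also carries RNAs in the cytoplasm, was split between its probe sets. Probe set 225932_s_at had 20182, 19242 and 18502 on Knock Down and 11062, 12498 and 13226 on Wild type arrays, and 225107_at had 4750, 3927 and 3706 on Knock Down and 2077, 2213 and 2336 on Wild type arrays. Neither pair of groups overlapped, with log2 fold changes of 0.66 ± 0.08 (limma adjusted p = 0.000817) and 0.90 ± 0.12 (limma adjusted p = 0.000915). The brightest probe set had 56110, 70646 and 69435 on Knock Down and 60821, 64941 and 79866 on Wild type arrays, which overlapped. Averaged over its tested probe sets, HNRNPA2B1 measured 0.50 (limma adjusted p = 0.00421).

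SRSF1 split in the same manner. Its probe set 226419_s_at had 4033, 3656 and 3676 on Knock Down and 2491, 2134 and 2433 on Wild type arrays (0.69 ± 0.11, limma adjusted p = 0.00222), while its brightest probe set had 52038, 54896 and 53752 on Knock Down and 49313, 53875 and 55641 on Wild type arrays. The first did not overlap and the second did. For SRSF4, 242837_at and 239512_at rose by 0.50 ± 0.15 and 0.69 ± 0.20 (limma adjusted p = 0.0394 and 0.0423), for SRSF7, 213649_at by 0.65 ± 0.16 (limma adjusted p = 0.0213), and for the U2 protein gene SNRPA1, 242146_at and 216977_x_at by 0.59 ± 0.14 and 0.40 ± 0.12 (limma adjusted p = 0.0167 and 0.0381). The brightest probe sets of these 3 genes measured 0.00, -0.11 and 0.12. HNRNPD, whose protein binds AU-rich elements, moved both ways. Its 213359_at rose (0.57 ± 0.09, limma adjusted p = 0.00293), and 221481_x_at and 229129_at fell (-0.32 ± 0.10 and -0.51 ± 0.15, limma adjusted p = 0.0499 and 0.0378).

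The further probe sets of HNRNPA1 (222040_at, 0.75 ± 0.17), SRSF6 (206108_s_at, 0.73 ± 0.22), SF3A2 (209381_x_at, 0.76 ± 0.19) and PRPF31 (202407_s_at, -0.46 ± 0.13) passed in the direction of the brightest (limma adjusted p = 0.0123, 0.0479, 0.0206 and 0.0322). HNRNPUL2 (222264_at, 0.58 ± 0.14) also rose, and PRPF6 (208879_x_at, -0.40 ± 0.11) and PRPF38A (223230_at, -0.28 ± 0.08) fell (limma adjusted p = 0.0166, 0.0379 and 0.0389). Of these 18 calls, those of both HNRNPA2B1 probe sets, SRSF1 226419_s_at, HNRNPD 213359_at and HNRNPA1 222040_at held in all 6 fits without 1 array, while the others ended in 2 or more of them. Where on the transcripts each probe set lies was not analysed here.

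**Figure D3:**
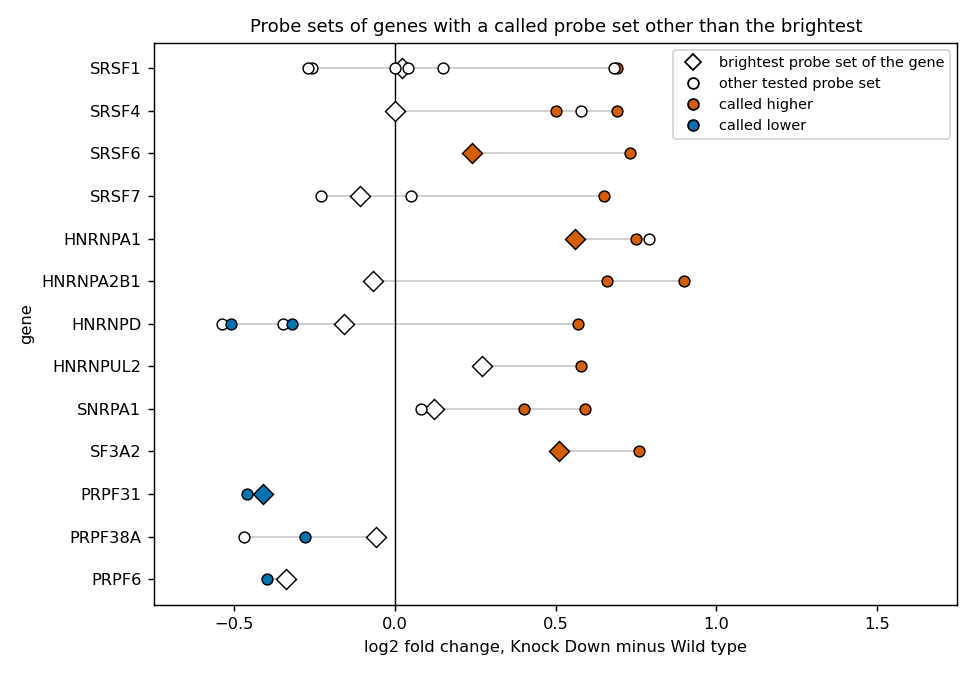
Log2 fold change, Knock Down minus Wild type, of every tested probe set of the 13 genes with a called probe set other than the brightest, 1 gene per row. Diamonds mark the brightest probe set and circles the others, filled orange where higher and blue where lower at a limma adjusted p under 0.05; for HNRNPA2B1, SRSF1, SRSF4 and SRSF7 the diamond is near 0 and filled circles lie to the right.

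After hMOF overexpression, SRSF6 was the 1 member that passed, 1.64% of 61, against 0.476% of all tested probe sets and 0.631% of genes. Its signals were 13092, 13278 and 13456 on Over Expression and 10111, 9426 and 9853 on Wild type arrays. The groups were well apart, and SRSF6 rose (log2 fold change 0.44 ± 0.07, limma adjusted p = 0.0202). The call held without Wild type replicate 1 and ended when any 1 of the 5 other arrays of these groups was left out, and its highest adjusted p was 0.135, with Over Expression replicate 3 left out. It also ended without Knock Down replicate 2, which enters only the estimate of spread. At an unadjusted p under 0.05 there were 12 members (19.7%), against 1680 of the 12036 genes (14%), and the median was 0.00 for members and for all genes. With the replicate block 5 members were called, all higher (8.2%, against 3.74% of all probe sets and 4.95% of genes). SRSF5, SF3B4, HNRNPA1 and PRPF19 then joined SRSF6. The comparison shares its Wild type arrays with the one above.

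By family, the largest differences that missed the threshold after overexpression were those of SF3B4, an SF3B subunit, at 0.39 ± 0.10 (limma adjusted p = 0.141), the SR protein gene SRSF5 at 0.31 ± 0.11 (0.299), HNRNPA1 at 0.26 ± 0.09 (0.262), PRPF19 at 0.23 ± 0.08 (0.293) and SNRPD2 at -0.21 ± 0.06 (0.224). SRSF5 had 26014, 21596 and 21569 on Over Expression and 20696, 17259 and 17637 on Wild type arrays, and SF3B4 had 9666, 8148 and 9502 on Over Expression and 7702, 6911 and 6250 on Wild type arrays. Neither gene's groups overlapped. Other HNRNP genes measured nearly as far from 0 as HNRNPA1 without passing, HNRNPDL at 0.26 ± 0.08 (limma adjusted p = 0.257), HNRNPH3 at -0.26 ± 0.08 (0.202), HNRNPA3 at -0.25 ± 0.16 (0.567) and HNRNPA0 at -0.24 ± 0.08 (0.235), and SRSF11 measured -0.27 ± 0.41 (0.84). For 54 of the 61 the 95% interval lay within 1.5-fold (88.5%, against 66% of genes). None of the 100 further probe sets passed in limma's test, against 0.283% of the further probe sets of all genes, and 18 had an unadjusted p under 0.05, where 1149 of 11291 did. By family the medians were 0.02 for SRSF, -0.03 for HNRNP, 0.00 for SNRP, 0.00 for SF3 and 0.09 for PRPF genes, and 8 of the 10 PRPF genes lay above 0.

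Between the 2 transfected groups, Knock Down against Over Expression, 7 of 61 members passed (11.5%, against 14.5% of all tested probe sets and 18.4% of genes), 1 higher, where 6.22% of genes were, and 6 lower, where 12.1% were. The share was below the background. The median was -0.03 for members and -0.05 for all genes, and by family it was -0.03 for SRSF, 0.05 for HNRNP, 0.01 for SNRP, -0.09 for SF3 and -0.20 for PRPF genes, of which 7 of 10 lay below 0. SF3B5 was again lowest, with 18128, 14980 and 16093 on Knock Down and 28496, 27559 and 27394 on Over Expression arrays (-0.77 ± 0.10, limma adjusted p = 0.000993). PRPF18 had 3239, 3320 and 3129 on Knock Down and 4461, 4649 and 4182 on Over Expression arrays (-0.46 ± 0.09, limma adjusted p = 0.00661), and PRPF31 had 6532, 6383 and 5987 on Knock Down and 8658, 8509 and 8310 on Over Expression arrays (-0.43 ± 0.08, limma adjusted p = 0.0056). None of these 3 overlapped, and their calls held in all 6 fits that left out 1 array of these groups.

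SF3A3 fell by 0.40 ± 0.09 (limma adjusted p = 0.0149), SNRPC by 0.32 ± 0.08 (limma adjusted p = 0.0216) and the Sm ring gene SNRPB by 0.38 ± 0.09 (limma adjusted p = 0.0155), all on the log2 scale. SNRPB had 55473, 46140 and 44436 on Knock Down and 67934, 58609 and 62740 on Over Expression arrays, with every Knock Down array lower. HNRNPA1 was higher, with 22925, 25482 and 22525 on Knock Down and 17782, 20940 and 19160 on Over Expression arrays (0.29 ± 0.09, limma adjusted p = 0.0471). SRSF6 measured -0.20 ± 0.07 and did not pass (limma adjusted p = 0.073), and SF3A2 measured 0.33 ± 0.14 (limma adjusted p = 0.128). The SF3A3 call ended without Knock Down replicate 3 (limma adjusted p = 0.0612) or Over Expression replicate 3 (0.0703). That of SNRPB ended without Knock Down replicate 2 (0.0649), Knock Down replicate 3 (0.0636) or Over Expression replicate 3 (0.0536), and that of SNRPC held only without Knock Down replicate 2 or Over Expression replicate 1. The HNRNPA1 call held only without Over Expression replicate 2, and no member was called higher without Knock Down replicate 1, 2 or 3, Over Expression replicate 3, or Wild type replicate 2 or 3. The 6 lower members became 3 without Knock Down replicate 3 or Over Expression replicate 3. With the replicate block 20 members were called, 7 higher and 13 lower (32.8%, against 26.9% of all probe sets and 32.6% of genes), the 7 among them. The strongest additions were SRSF5 (-0.34, limma adjusted p = 0.000775), PRPF39 (0.46, 0.00627) and PRPF19 (-0.24, 0.00849). The comparison shares its Knock Down and Over Expression arrays with the others.

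Further splicing genes outside these families were read from 8 lists, 140 genes of which 128 were tested. In Knock Down against Wild type 22 passed (17.2%, against 19.4% of genes), 7 higher and 15 lower, where 6.70% and 12.7% of genes were. The share was near the background. The PRPF19 complex partners and the factors of the catalytic steps held 7 of the lower calls in 21 tested genes, with none higher and a median of -0.17. Among all genes 12.7% were lower and the median was -0.04, and the difference from them was not tested. The 7 were the helicase gene DHX16 (-0.74 ± 0.10, limma adjusted p = 0.00148), CWC27 (-0.47 ± 0.09, 0.00688), ISY1 (-0.48 ± 0.11, 0.0131), CWC22 (-0.49 ± 0.12, 0.019), BCAS2, BUD31 and SLU7. DHX16 had 3705, 3237 and 3473 on Knock Down and 6190, 5974 and 5204 on Wild type arrays, without overlap. Of the 10 LSM genes, whose proteins form rings on U6 snRNA and on messenger RNAs, 3 fell and none rose, LSM3 by 0.55 ± 0.06 on the log2 scale (limma adjusted p = 0.000416), with LSM10 and LSM4. LSM3 had 21106, 19691 and 20001 on Knock Down and 30535, 29551 and 29082 on Wild type arrays.

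SR kinases and SR-related proteins gave 3 higher and none lower of 17. That is 17.6% called, against 19.4% of genes, of which 6.70% were higher and 12.7% lower. The 3 were the CLK kinases that phosphorylate SR proteins, CLK1 (0.64 ± 0.12, limma adjusted p = 0.00644), CLK4 (0.41 ± 0.08, 0.00749) and CLK2 (0.37 ± 0.10, 0.0345). CLK1 had 2927, 3188 and 3694 on Knock Down and 1965, 2217 and 2095 on Wild type arrays. Of 13 genes for branch site and 3′ splice site recognition, U2SURP (0.39 ± 0.09, limma adjusted p = 0.0144) and U2AF2 (0.32 ± 0.10, 0.0457) rose, and the SF3B partner PHF5A (-0.29 ± 0.09, 0.0411) and DNAJC8 (-0.31 ± 0.09, 0.0485) fell. Of 20 further snRNP proteins LUC7L2 and SNRNP25 rose and ZMAT2 fell. Of 11 genes of the SMN complex, which loads Sm proteins, and of Sm protein methylation, GEMIN2 and CLNS1A fell. The branch site, snRNP and SMN lists had 30.8%, 15% and 18.2% called, against 19.4% of genes, and no difference was tested. None of 27 other regulators of alternative splicing and none of 9 genes of the exon junction complex and nonsense-mediated decay passed in limma's test. An unadjusted p under 0.05 was seen for 7 (25.9%) and 3 (33.3%) of them, against 34.7% of genes. The calls of LSM4, SNRNP25 and ZMAT2 ended whichever array was left out, and those of DHX16, CWC27, LSM3, CLK1 and CLK4 held in all 6 fits. Those of U2SURP, ISY1, CWC22, DNAJC8, CLK2, PHF5A, U2AF2, LSM10, LUC7L2, GEMIN2 and CLNS1A each ended in 2 to 5 of them. With the replicate block 41 of the 128 were called (32%, against 33.4% of genes), 19 higher and 22 lower, the 22 among them. By list the block called 10 of 21 genes of the PRPF19 complex and the catalytic steps, 1 of them higher, 5 of 10 LSM genes, 1 of them higher, and 5 of 17 SR kinases and SR-related genes, all higher. It also called 5 of 13 genes of branch site and 3′ splice site recognition and 6 of 20 further snRNP proteins. The SMN complex and Sm methylation list had 3 of 11 called. The block further called 4 of 27 other regulators and 3 of 9 genes of the exon junction complex and nonsense-mediated decay.

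After overexpression none of the 128 passed, and 17 had an unadjusted p under 0.05 in limma's test. At that unadjusted level there were 1680 of the 12036 genes, or 14%, against 13.3% of the 128. In Knock Down against Over Expression 8 were higher and 13 lower, together 16.4%, against 18.4% of genes, of which 6.22% were higher and 12.1% lower. DHX16 (-0.77 ± 0.10, limma adjusted p = 0.00114), BUD31 (-0.52 ± 0.08, 0.00259), LSM3 (-0.41 ± 0.06, 0.00216) and PHF5A (-0.53 ± 0.09, 0.00307) fell, and CLK4 (0.44 ± 0.08, 0.00522), the exon junction partner PNN (0.32 ± 0.06, 0.00864), CLK1 (0.45 ± 0.12, 0.0328) and SON (0.25 ± 0.07, 0.0368) rose. All 21 tested genes of the PRPF19 complex and the catalytic steps lay below 0 in this comparison, where 6804 of the 12036 genes did, and 5 of them passed, where 12.1% of genes were lower. Their median was -0.17, against -0.05 for all genes. The CLK1 call here held in 2 of the 6 fits without 1 array and that of SON in none. With the replicate block 36 of the 128 were called here (28.1%, against 32.6% of genes), the 21 among them, and 10 of the 21 genes of the PRPF19 complex and the catalytic steps were lower.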

How the data were processed

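Total RNA of 9 HEK293 samples was labelled with biotin and hybridised to arrays of 54675 probe sets. The deposited table holds linear signal intensities, made by the authors with MAS5 per the submitters' processing notes (the version and settings: not given in the sources used here). Groups were taken from the sample titles. Values were taken as log2(signal + 1), and the 27307 probe sets above the median mean log2 signal of 7.564 (62 control probe sets left out) were fitted with limma 3.58.1 (lmFit and trended eBayes) in R 4.3.3, with all 3 groups in 1 model. Benjamini-Hochberg adjustment ran over all tested probe sets, at 0.05. Python 3.11.15 and pandas 2.3.3 made the tables and matplotlib 3.10.9 the figures.

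Gene names came from the platform annotation, in which 41097 probe sets have 1 symbol, 1801 several and 11777 none. All 64 members matched RefSeq by Entrez ID. The members and lists were chosen with earlier results of these data known. Genes are named by a rule: per family and comparison, up to 8 called members of smallest p and any against the family's majority, the 2 brightest and the largest uncalled change; per further list, up to 4 called genes of smallest p. The remaining called genes and probe sets were chosen after their values were seen.

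Same-numbered arrays were checked for shared deviations from their group means. Knock Down correlated with Wild type at 0.362, 0.144 and 0.137 and with Over Expression at 0.352, 0.237 and 0.106. Every such pair was above 0.1, so blocked counts stand beside the Knock Down counts they move. Over Expression and Wild type gave 0.447, 0.16 and 0.083. Across numbers, Wild type 3 and Knock Down 2 gave 0.18, and Wild type 2 and Knock Down 3 gave 0.0293. Over Expression 3 and Knock Down 2 gave 0.0895, and Over Expression 2 and Knock Down 3 gave 0.0569. Beyond replicate 1, the number thus does not clearly pair Knock Down with Wild type arrays. The alternatives were a pseudocount of 16, a filter at percentile 75 or none, quantile normalization, no trend, only the compared groups, the mean over a gene's probe sets, the replicate block, a term for replicate 1, replicates 2 and 3 only, and leaving out each array. The scripts were tested on simulated data. With 3 arrays per group an exact permutation test cannot go below p = 0.1, which is the value for KAT8. The number of arrays limits the precision.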

Additional observations from a re-analysis of the deposited data

How the results depend on the processing

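In Knock Down against Wild type, the 4 higher and 6 lower members became 8 and 11 with the replicate block (7637 probe sets called), 8 and 13 with the term for replicate 1 (7706), 5 and 11 in replicates 2 and 3 only (member median -0.05), and 8 and 5 with the mean over a gene's probe sets (median 0.03). The term for replicate 1 called 34.4% of members, against 33.4% of genes. Leaving out 1 array of any group gave 2 to 4 higher, 2 to 8 lower, 2213 to 4624 probe sets and medians of -0.05 to -0.02.

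In Over Expression against Wild type, arrays of replicate 1 deviated together (0.447). Those of replicate 2 did so less (0.16), and replicate 3 (0.083) lay below 0.1. The replicate block called 1022 probe sets (3.74%) and 5 higher members (SRSF6, SRSF5, SF3B4, HNRNPA1, PRPF19), 8.2% of members against 4.95% of genes. The block also called 9 of the 100 further probe sets (9%, against 2.51% of the further probe sets of all genes). Of the 128 further genes it called 5 (3.91%, against 4.95% of genes). The term for replicate 1 called 1109 probe sets, with 6 members higher and 1 lower (11.5%, against 5.34% of genes). No member was higher with no trend (70 probe sets), with the compared groups only (27) or with the mean over probe sets (median 0.05). Quantile normalization gave a median of 0.04, and replicates 2 and 3 only gave 220 probe sets. Leaving out 1 array gave 0 to 1 higher, 0 lower, 25 to 97 probe sets and medians of -0.01 to 0.03.

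In Knock Down against Over Expression, the replicate block gave 7 higher and 13 lower (7334 probe sets), the term for replicate 1 gave 6 and 14 (7425), and replicates 2 and 3 only gave 2 higher. The term for replicate 1 called 32.8% of members, against 33% of genes. No member was higher with no trend, with the compared groups only or without the filter (median 0.01). Leaving out 1 array gave 0 to 1 higher, 3 to 7 lower, 2040 to 4168 probe sets and medians of -0.03 to 0.02.

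The sign of single genes turned with the mean over probe sets for SF3B6 (0.01), CLNS1A (0.06), HNRNPA2B1 (0.50) and SRSF7 (0.09) in Knock Down against Wild type and for SON (-0.01) in Knock Down against Over Expression. SRSF1 (-0.01 in replicates 2 and 3 only) and SRSF4 (-0.02 with quantile normalization) turned about 0. Leaving out 1 array gave -0.15 to 0.05 for HNRNPA2B1, -0.02 to 0.25 for SNRPA1, and -0.03 to 0.06 for both SRSF1 and SRSF4. Causes were not tested, beyond the fewer arrays or other probe sets each alternative uses. All 10 Knock Down calls against Wild type were also called with the block.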

Other observations

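The replicate 1 arrays differed from the others in several members, whatever the group. SRSF11, an SR-related protein gene, had 20282 on Knock Down, 13628 on Over Expression and 18420 on Wild type replicate 1, against 25139 to 51079 on the 6 other arrays. Replicate 1 minus the others was -0.70 on the log2 scale for HNRNPD-DT, -0.40 for HNRNPA3 and -0.40 for HNRNPD, and PRPF8 (0.27), SF3B2 (0.28) and SRSF4 (0.18) were higher on all 3 replicate 1 arrays than on any other. Of all tested probe sets, 1726 of 27307 were lower and 1319 higher in this way. Whether RNA quality, labelling or culture went with this was not tested. The largest log2 fold change among all probe sets of the members in Knock Down against Wild type was that of HNRNPH1 213472_at, 1.18 ± 0.37, which did not pass (limma adjusted p = 0.0535). It had 805.1, 1390 and 1444 on Knock Down and 322, 639.1 and 677.6 on Wild type arrays, while the brightest HNRNPH1 probe set measured 0.15 ± 0.09 (limma adjusted p = 0.274).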
